A study of Mus musculus with 139 samples.

Results

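The 32 genes described here carry the mitochondrial cell death programme and the p53 response. They comprise 4 anti-apoptotic BCL2 proteins (Bcl2, Bcl2l1, Bcl2l2, Mcl1), the effectors Bax and Bak1, 7 BH3-only proteins (Bcl2l11, Bbc3, Pmaip1, Bad, Bid, Bik, Bmf), 4 caspases with their adaptor Apaf1, 3 inhibitors of apoptosis (Xiap, Birc2, Birc3), 4 mitochondrial proteins (Cycs, Diablo, Aifm1, Htra2), Trp53 with its regulators Mdm2 and Mdm4, and 4 p53 target, stress or death receptor genes (Cdkn1a, Gadd45a, Gadd45b, Fas). They were chosen by name, each matched to its row by gene identifier, and make up 32 of the 55335 rows of the count table.

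The study compared hair cells, the mechanosensory cells of the cochlea, along the organ from base to apex. It profiled RNA of 139 single mouse cells, 1 library each, at postnatal days 14 to 16. The outer hair cells (OHCs), which amplify sound, numbered 21 from the apex, 23 from the middle turn and 8 from the base. The inner hair cells (IHCs), which drive the auditory nerve, numbered 34 from the apex, 34 from the middle turn and 19 from the base. The sources used here give no strain, sex or number of animals, and the labels name no genotype or treatment. Since no label ties a cell to an animal, each of the 6 groups was treated as 1 sample, its counts were summed over cells, and no difference between groups was tested.

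In the intrinsic pathway, BH3-only proteins sense damage and release Bax and Bak1 from their anti-apoptotic partners. Bax and Bak1 then open the outer mitochondrial membrane, cytochrome c (Cycs) leaves and assembles with Apaf1, and caspase 9 starts the protease cascade that Xiap restrains and Diablo frees. The transcription factor p53 (Trp53), held down by Mdm2 and Mdm4, switches on Cdkn1a, Bbc3, Pmaip1, Bax, Fas and Gadd45a among many targets. In the cochlea this machinery is best known from noise, aminoglycoside and cisplatin injury, to which basal outer hair cells are the most sensitive.

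Cell totals ran from 71027 to 13576942 counts, with a median of 2912573 in OHCs and 5497962 in IHCs. The basal OHCs together held 28574809 counts, 30.9% of them in a single cell. In 17 libraries at least 10% of counts fell on mitochondrially encoded genes or on CT010467.1, of which 2 were basal OHCs, 7 middle OHCs and 4 apical OHCs. These 17 are called mitochondria-rich below for short, though the cut is on both shares together and some had less than 10% mitochondrial counts. The IHC marker Otof, needed for transmitter release, reached 5 CPM (counts per 1000000 counts) in 21 of 52 OHCs and 83 of 87 IHCs, and the OHC marker Ocm, a calcium buffer, reached it in 46 of 52 OHCs and 42 of 87 IHCs. In 3 OHCs and 6 IHCs the order of Otof and Ocm went against the label. Slc26a5, the OHC motor protein prestin, had a read in 36 of 52 OHCs and 27 of 87 IHCs, and reached 5 CPM in 25 and 11. In basal OHCs Slc26a5 reached 5 CPM in 1 of 8 cells, the hair cell gene Myo7a in 0 and Ocm in 6. In apical OHCs Slc26a5 did so in 15 of 21 cells, Myo7a in 6 and Ocm in 21. Summed hair cell markers came to 2360 CPM in basal and 6703 CPM in apical OHCs. Those of neurons and glia came to 13187 and 2181 CPM in the same order. Summed markers of mesenchyme and bone came to 23076 CPM in basal OHCs and 1572 CPM in apical OHCs, and those of blood and immune cells to 19547 and 1622 CPM in the same order. In IHCs the blood and immune markers came to 3428 CPM at the base and 408 CPM at the apex. Supporting cell markers came to 123 CPM in OHCs and 1641 CPM in IHCs at the apex, to 377 and 1337 CPM in the middle turn, and to 113.6 and 538 CPM at the base. These levels move with the comparisons of base with apex and of OHCs with IHCs below, and their part in the results was not tested. The cells also fall into 2 series by title number, 58 cells above 100 (higher series) and 81 cells at 100 or below (lower series), whose meaning is not given.

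Levels below are pooled CPM, the counts of a group over its total after scaling by the trimmed mean of M-values (TMM), with 95% Poisson intervals that cover counting error only. Ratios are log2 of (CPM + 1) over (CPM + 1), and a gene was counted as 2-fold where that ratio reached 1 in size. Of the 32 members, 25 reached 5 CPM in at least 1 group, as did 15016 of all genes. The other 7 stayed below it in every group, namely Pmaip1, Bid, Bik, Birc3, Htra2, Gadd45b and Fas. A gene that reached 5 CPM only through 1 high group had to differ between groups, so counts over the 25 are given as descriptions with the share of all genes beside them.

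For 3 members on which the results turn, promoter windows were read from RefSeq (build GRCm38.p6, 250 bases before to 50 bases after the annotated start); they are shown because Bcl2 had the most negative pooled ratio of OHCs over IHCs and Cdkn1a and Gadd45a differed in pooled level along the cochlea. Capitals mark matches, on either strand, to the GC box GGGCGG, the CCAAT box CCAAT or a p53 half-site; TATAAA and the E-box CACGTG were searched as well and have no match in these windows. Matches to different motifs do not overlap here.
Bcl2 promoter, chr1:106714241-106714540, minus strand: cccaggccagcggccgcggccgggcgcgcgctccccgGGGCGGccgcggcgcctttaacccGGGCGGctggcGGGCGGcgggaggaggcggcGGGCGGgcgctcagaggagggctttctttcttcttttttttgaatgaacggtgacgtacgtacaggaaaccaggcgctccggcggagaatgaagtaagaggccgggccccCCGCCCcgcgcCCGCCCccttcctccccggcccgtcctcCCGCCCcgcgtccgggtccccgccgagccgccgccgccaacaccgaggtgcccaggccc
Cdkn1a upstream promoter, chr17:29090729-29091028, plus strand: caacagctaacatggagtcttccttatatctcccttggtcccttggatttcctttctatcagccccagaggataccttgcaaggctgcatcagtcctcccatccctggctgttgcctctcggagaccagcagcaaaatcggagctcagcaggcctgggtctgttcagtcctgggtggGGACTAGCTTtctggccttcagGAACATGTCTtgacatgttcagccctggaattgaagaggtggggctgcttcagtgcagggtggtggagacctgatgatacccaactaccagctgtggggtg
Gadd45a promoter, chr6:67037358-67037657, minus strand: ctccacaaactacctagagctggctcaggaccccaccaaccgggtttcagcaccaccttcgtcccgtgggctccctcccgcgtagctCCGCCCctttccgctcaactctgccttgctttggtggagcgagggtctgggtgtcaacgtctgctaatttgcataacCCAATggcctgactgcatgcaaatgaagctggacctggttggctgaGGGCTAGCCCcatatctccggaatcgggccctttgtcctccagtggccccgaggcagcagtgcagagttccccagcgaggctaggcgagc
The Bcl2 window held 7 GC boxes and no other match. The Cdkn1a window, the upstream one of 2 for this gene, held 2 p53 half-sites, and the Gadd45a window held 1 p53 half-site, 1 GC box and 1 CCAAT box. Over the 29 members with an entry, 7 of 42 windows held a p53 half-site, those of Trp53, Bax, Bmf, Cdkn1a, Mdm2, Birc2 and Gadd45a, against 8.36% of 32544 windows in the whole table. GC boxes stood in 26 of the 42 windows, against 35.9% of all windows, and CCAAT boxes in 16, against 37.4%. A match describes letters in a window and says nothing of binding in these cells.

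Per kilobase of exon, Bcl2l1 was the most abundant of the 32 members in OHCs and in IHCs, at 39.9996 and 98.9 CPM per kb as the mean of the 3 regions. It encodes BCL-XL, a guard of the outer mitochondrial membrane. Behind it in OHCs came Gadd45a with 38.4, Mcl1 with 36.2, Aifm1 with 18.1 and Cdkn1a with 12.5 CPM per kb. Without the top cell of each group these OHC levels were 21.95 for Bcl2l1, 10.8 for Gadd45a, 12.0469 for Mcl1, 8.56 for Aifm1 and 5.67 for Cdkn1a. Behind it in IHCs came Cdkn1a with 32.6, Mcl1 with 20.3, Birc2 with 19.99 and Bcl2 with 19.8 CPM per kb. Without the top cells these IHC levels were 22.9977 for Cdkn1a, 14.9323 for Mcl1, 4.63001 for Birc2 and 15.7183 for Bcl2. Birc2 then held rank 8 in IHCs and Bcl2 rank 3. Bcl2 held rank 26 of 32 in OHCs and rank 5 in IHCs, and Casp8, the caspase of death receptors, rank 29 in OHCs and rank 10 in IHCs, or 24 in IHCs without the top cells. Htra2, a mitochondrial protease, and Bid, the BH3-only protein cut by caspase 8, were at the bottom in both types, with 8 and 35 counts over all 139 cells. Most members were detected in few cells, with a median of 9, 9 and 10.5 of the 32 in apical, middle and basal OHCs and of 8, 9.5 and 16 in the matching IHCs.

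**Figure D1:**
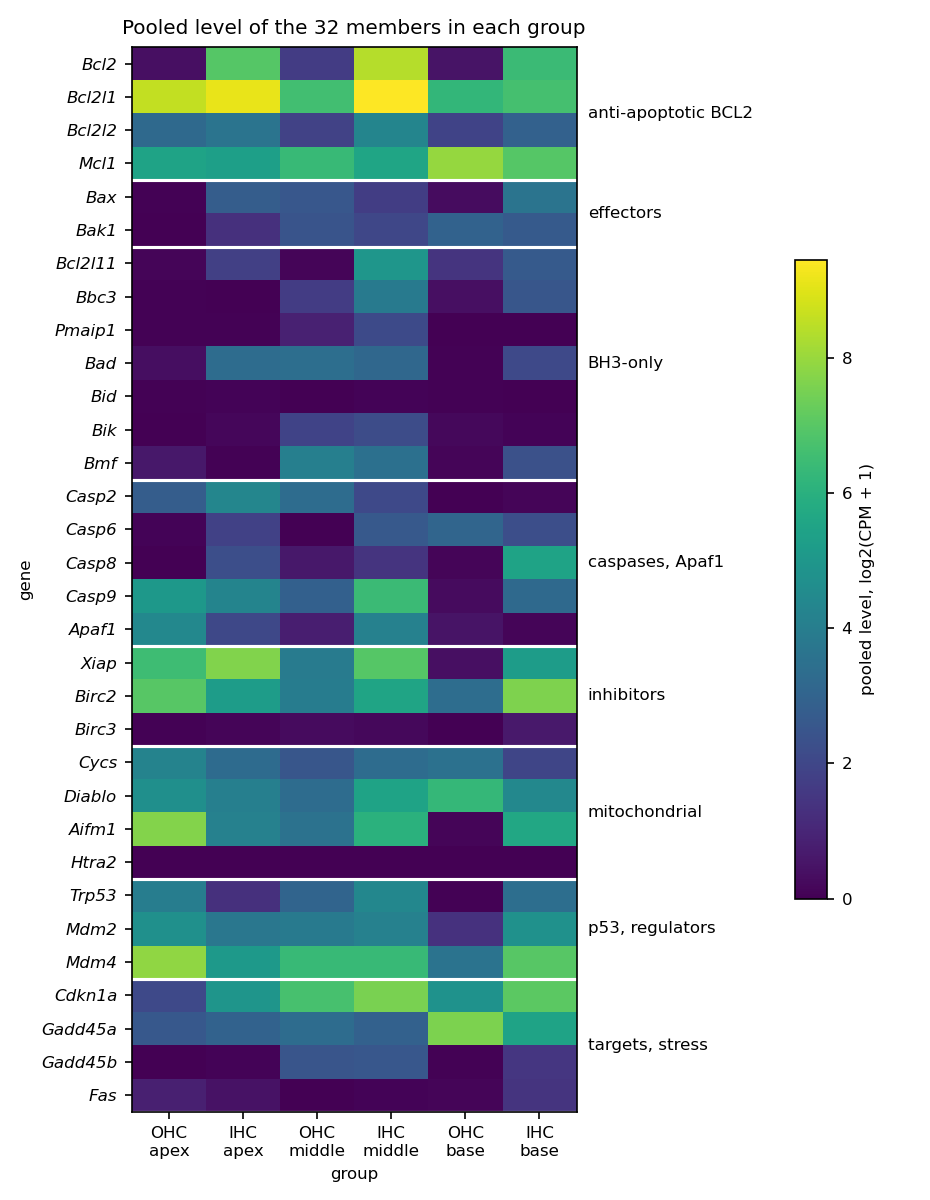
Pooled level of the 32 members as log2(CPM + 1) in the 6 groups, OHC beside IHC for apex, middle and base, with rows grouped by role. Bcl2 is dark in the 3 OHC columns and bright in the 3 IHC columns, Bcl2l1 is bright in all 6, and Htra2 and Bid are dark throughout.

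Bcl2, the founding anti-apoptotic protein, had a lower pooled level in OHCs than in IHCs in every region. It had 0.298 CPM in apical OHCs (0.201 to 0.426), 2.22 CPM in middle OHCs (1.97 to 2.50) and 0.398 CPM in basal OHCs (0.172 to 0.785). IHCs had 125 CPM at the apex (123 to 126), 334 CPM in the middle turn (331 to 336) and 86.1 CPM at the base (84.5 to 87.7). The log2 ratios of OHCs over IHCs were -6.59, -6.70 and -5.96 from apex to base, with a mean of -6.42.

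Cell by cell, Bcl2 had a median of 0 CPM in OHCs of all regions, with highest cells at 2.94, 40.2 and 2.53 CPM from apex to base. In IHCs the cell medians were 3.85, 32.7 and 1.57 CPM and the highest cells 2293, 1449 and 497 CPM from apex to base. The ranges overlap, since both types include cells at 0. At least 5 CPM was found in 3 of 52 OHCs (5.77%, exact binomial interval 1.21% to 15.9%) and in 42 of 87 IHCs (48.3%, 37.4% to 59.3%). With every cell thinned to 582635 counts, 5 of 44 OHCs (11.4%) and 54 of 81 IHCs (66.7%) kept a Bcl2 read; thinning left out 8 OHCs and 6 IHCs of lower depth. Without thinning a read was found in 17 OHCs (32.7%) and 71 IHCs (81.6%). OHCs had reads of Otof in 37 cells (71.2%) and of Slc17a8, the glutamate transporter of IHCs, in 11 cells (21.2%), so the OHC share of cells with a Bcl2 read lies between those of transcripts that mark the other type, and it is not read as expression.

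The Bcl2 ratio was -6.64 among cells of the higher series and -5.23 among those of the lower, and -6.64 without the top cell of each group. It was -6.88 without the 17 libraries rich in mitochondrial or CT010467.1 counts, and -6.44 without the 9 libraries whose markers went against their label. The base was where the series differed. In the lower series Bcl2 had 0.2495 CPM in 6 basal OHCs and 1.92 CPM in 12 basal IHCs, a ratio of -1.22. In the higher series it had 0.855 CPM in 2 basal OHCs and 192 CPM in 7 basal IHCs, a ratio of -6.70. Its exons overlap those of D630008O14Rik on the other strand, and as the sources used here do not state strandedness, reads of the pair cannot be told apart.

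Cdkn1a, which encodes the cell cycle inhibitor p21 and is the best known p53 target, was the other member lower in OHCs under every condition of the naming rule. The rule asked for a 2-fold pooled ratio, and for the same direction in the mean over cells, in each region, and within each series wherever both groups had at least 5 cells. Cdkn1a had 3.19 CPM in apical OHCs (2.85 to 3.56), 103.05 CPM in middle OHCs (101.3 to 104.9) and 27.4 CPM in basal OHCs (25.2 to 29.8). In IHCs it had 29.7 CPM at the apex (28.9 to 30.6), 185 CPM in the middle turn (183 to 186) and 133 CPM at the base (131 to 135). The ratios were -2.87, -0.83 and -2.24 from apex to base, so the middle turn differed by less than 2-fold.

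Cells of the 2 types overlap widely for Cdkn1a, with medians of 0, 0 and 0.145 CPM in OHCs (apex to base) and 0.111, 1.04 and 0.898 CPM in the matching IHCs. The highest cells reached 22.5, 634 and 180 CPM in OHCs and 231, 1128 and 1213 CPM in IHCs. At least 5 CPM was found in 10 of 52 OHCs (19.2%, 9.63% to 32.5%) and in 30 of 87 IHCs (34.5%, 24.6% to 45.4%). After thinning, a read remained in 16 of 44 OHCs (36.4%) and 38 of 81 IHCs (46.9%). All 7 middle OHCs with a read at 5 CPM or more belonged to the higher series, where all 7 cells lay between 34.9 and 634 CPM, and the 16 cells of the lower series had a pooled 0.0264 CPM. Exons of Cdkn1a overlap AC167363.2 on the other strand.

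**Figure D2:**
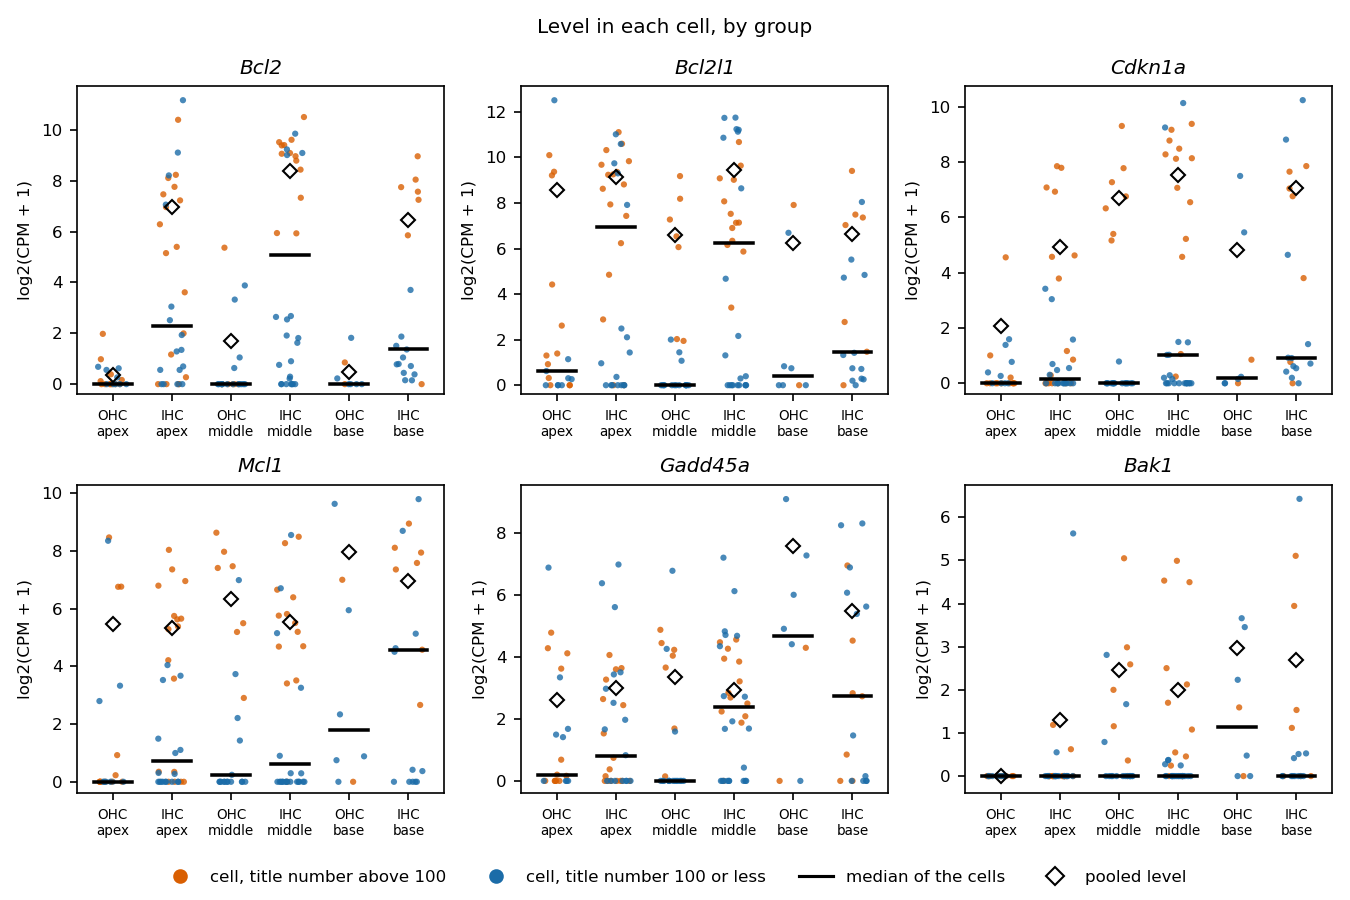
Level of Bcl2, Bcl2l1, Cdkn1a, Mcl1, Gadd45a and Bak1 in each of the 139 cells as log2(CPM + 1), OHC beside IHC for each region; points are cells coloured by title-number series, black lines the medians of the cells, and open diamonds the pooled levels. Bcl2 stays near 0 in OHCs with a highest cell of 40.2 CPM, whereas Gadd45a has a cell median of 24.5 CPM in basal OHCs, above every other group.

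Across the 25 members past the filter, none was 2-fold higher in OHCs and 14 were 2-fold lower as the mean of the 3 regions, where 17.3% of the 15016 genes were higher and 39.3% were lower. The median ratio was -1.28 over these 25, -0.60 over all 32 members and -0.59 over the 15016 genes. DESeq2 size factors moved the median of all genes by 0.32 and the split to 3 higher and 10 lower, with Bcl2 at -6.10 and Cdkn1a at -1.48. By region, 5 members were higher and 10 lower at the apex (28.6% and 32.4% of all genes), 1 higher and 13 lower in the middle turn (20.7% and 29.8%), and 3 higher and 16 lower at the base (16.1% and 48.9%). Bcl2 and Cdkn1a alone met the whole rule, which 1.25% of all genes met as higher and 6.9% as lower.

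Among the anti-apoptotic genes, Bcl2l1 had 381, 94.8 and 74.9 CPM in OHCs (apex to base) and 566, 695 and 99.5 CPM in the matching IHCs, a mean ratio of -1.28. Within the lower series its direction was not the same in every region. At least 5 CPM of Bcl2l1 was found in 13 of 52 OHCs and 50 of 87 IHCs, and the top apical OHC, at 5828 CPM, held 48.5% of its group's counts. Bcl2l2, which encodes BCL-W, had a ratio of -1.29 and also differed in direction in the lower series. Mcl1, a short-lived protein with a guard role like that of BCL-XL, had ratios of 0.17, 0.81 and 0.996 from apex to base and a mean of 0.66, or 1.17 with DESeq2 size factors. Without the top cells its mean was -0.18 and its basal ratio -1.72, and in the higher series the mean was -0.03, so its direction was not steady.

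Taking the 4 anti-apoptotic genes as a group, at least 1 reached 5 CPM in 26 of 52 OHCs and 70 of 87 IHCs. At least 2 did so in 12 OHCs and 43 IHCs. Bcl2 and Bcl2l1 reached 5 CPM together in 1 OHC and 32 IHCs, and Bcl2l1 without Bcl2 in 12 OHCs and 18 IHCs. Median depth was lower in OHCs, and at equal depth the shares of cells with a read for Bcl2l1 were 40.9% of OHCs and 70.4% of IHCs.

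The pro-apoptotic genes were low in both types. The effectors Bax and Bak1 reached 5 CPM in 8 of 52 OHCs and 15 of 87 IHCs for at least 1 of the pair. Bax had 0.0398, 4.99 and 0.249 CPM in OHCs (apex to base) and 5.92, 2.27 and 11.4 CPM in the matching IHCs, a mean ratio of -1.72 with the opposite sign, 0.87, in the middle turn. A single cell held 98.4% of the Bax counts of apical IHCs. Bax exons overlap Gm45808 on the same strand. At least 1 of the 7 BH3-only genes reached 5 CPM in 9 of 52 OHCs and 19 of 87 IHCs.

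Bcl2l11, which encodes BIM, had 0.0895, 0.0967 and 1.69 CPM in OHCs (apex to base) and 2.41, 30.3 and 5.41 CPM in the matching IHCs. Its mean ratio was -2.58, but 96.6%, 81.0% and 97.6% of the IHC counts came from 1 cell in each region, and the ratio was 0.05 in the lower series. Bbc3, which encodes PUMA, had 0.0298, 2.18 and 0.299 CPM in OHCs (apex to base) and 0.0135, 14.01 and 4.83 CPM in the matching IHCs. Again 1 cell held 83.1% of the middle and 97.0% of the basal IHC counts. A read of Bbc3 was found in 13 of 52 OHCs and 19 of 87 IHCs, and of Pmaip1, which encodes NOXA, in 5 and 11 cells.

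Among the inhibitors, Xiap, which binds and blocks caspases 3, 7 and 9, had 89.6, 14.3 and 0.299 CPM in OHCs (apex to base) and 200 (198 to 202), 124 and 36.5 CPM in the matching IHCs. Its ratio was -3.01, lower in OHCs in each pooled region, though not in each region of either series. A single cell held 78.3% of apical OHC counts and another 80.7% of middle IHC counts. Casp8 had a ratio of -2.79 whose direction was not the same throughout the lower series, and 1 basal IHC at 644 CPM held 99.8% of its group's counts. Without the top cells the Casp8 ratio was -0.72. Casp9 had a ratio of -1.90 with the opposite sign, 0.79, at the apex, where 1 OHC at 782 CPM held 99.9% of the counts. Bbc3 (-1.46), Bad (-1.59), Casp6 (-1.18), Birc2 (-1.34) and Aifm1 (-1.49) were also 2-fold lower in the mean but had the opposite sign in at least 1 region.

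**Figure D3:**
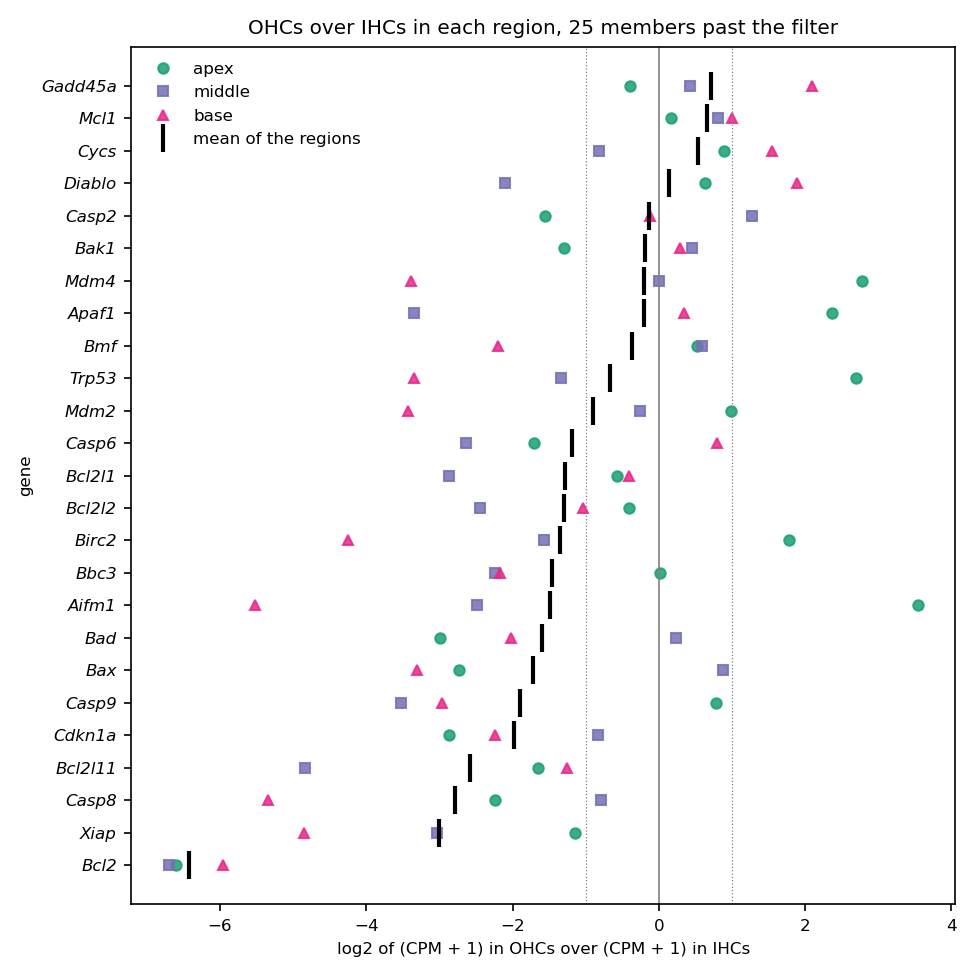
Log2 ratio of OHCs over IHCs for the 25 members that reached 5 CPM in a group, in order of the mean; green circles are the apex, purple squares the middle turn, pink triangles the base, black bars the mean of the regions and dotted lines 2-fold. The 3 ratios of Bcl2 lie between -6.70 and -5.96, while those of Aifm1 run from 3.54 at the apex to -5.52 at the base.

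Trp53 had 15.03, 7.22 and 0.0498 CPM in OHCs and 1.46, 19.8 and 9.64 CPM in IHCs, and its ratio of OHCs over IHCs was 2.70 at the apex, -1.34 in the middle turn and -3.34 at the base. The apical OHC value came almost wholly from 1 cell, at 231 CPM and 99.7% of the counts. Without the top cells the ratios were -0.48, -0.82 and -3.00 from apex to base. A Trp53 read was found in 17 of 52 OHCs and 33 of 87 IHCs. Its inhibitor Mdm4 had a read in 39 of 52 OHCs and 60 of 87 IHCs, and reached 5 CPM in 23 OHCs and 28 IHCs. Over both types together, its 99 cells with a read were the most of all members. In IHCs alone Bcl2 (71 cells) and Bcl2l1 (67 cells) had a read more often. Trp53 and Cdkn1a were at 5 CPM together in 4 of the 6 OHCs and 11 of the 12 IHCs with Trp53 at that level. Among middle cells both genes reached it more often in the higher series. In middle IHCs Trp53 did so in 6 of 13 higher-series and 1 of 21 lower-series cells, and Cdkn1a in 11 and 2. In middle OHCs Trp53 did so in 4 of 7 and 1 of 16 cells, and Cdkn1a in 7 and 0. Whether the overlap goes beyond series and depth was not tested.

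Base and apex were compared within each cell type. Among IHCs, 12 of the 25 members were 2-fold higher and 7 were 2-fold lower at the base, where 26.5% and 31.5% of all genes were, and the median ratio was 0.91 over the 25, 0.67 over all 32 and -0.02 over all genes. Among OHCs, 7 members were 2-fold higher and 11 were 2-fold lower at the base, against 17.4% and 47.6% of all genes, with medians of -0.45, -0.06 and -0.72. DESeq2 size factors moved the OHC median of all genes by 0.34. The rule was met in IHCs by 7 members as higher and 5 as lower (14.8% and 19.3% of all genes), and in OHCs by 6 as higher and 8 as lower (14.3% and 28.8%). For OHCs the series condition rests on the lower series, since the higher series has 2 basal cells.

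Met in both types as higher at the base were Bak1, Mcl1, Cdkn1a and Gadd45a, 4 members, against 2.7% of all genes. Met in both as lower were Bcl2l1, Casp2 and Apaf1, 3 members, against 6.67% of all genes. Trp53 and Birc2 met it as lower in OHCs and higher in IHCs, as 3.65% of all genes did, although the OHC ratio of Birc2 was 2.05 without the mitochondria-rich libraries.

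Gadd45a, a stress gene induced by p53 and by other damage signals, was higher at the base in both types. It had 189 CPM in basal OHCs (183 to 195) and 5.02 CPM in apical OHCs (4.59 to 5.48), a ratio of 4.98. In IHCs it had 43.6 CPM at the base (42.5 to 44.8) and 6.89 CPM at the apex (6.48 to 7.33), a ratio of 2.50. Middle cells stood near the apex, at 9.24 CPM in OHCs and 6.60 CPM in IHCs.

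The cell medians of Gadd45a were 24.5 CPM in basal and 0.150 CPM in apical OHCs, and 5.62 CPM in basal and 0.725 CPM in apical IHCs. At least 5 CPM was found in 6 of 8 basal and 6 of 21 apical OHCs, and in 10 of 19 basal and 11 of 34 apical IHCs. The groups overlap, with cells at 0 in all 4 and apical cells reaching 116.1 CPM in OHCs and 124 CPM in IHCs. The top basal OHC, at 540 CPM, held 80.7% of the group's counts, and without the top cell of each group the ratios were 3.26 in OHCs and 2.39 in IHCs. Within the lower series they were 4.44 and 2.06, and without the mitochondria-rich libraries 5.50 and 2.57. Exons of Gadd45a overlap E230016M11Rik on the other strand.

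Cdkn1a was higher at the base at 27.4 against 3.19 CPM at the apex in OHCs, a ratio of 2.76, and at 133 against 29.7 CPM in IHCs, a ratio of 2.12. Without the top cell of each group the ratios were 2.32 and 2.15. In OHCs 1 basal cell at 180 CPM held 83.8% of the counts and at least 5 CPM was found in 2 of 8 basal cells and 1 of 21 apical cells. The ratio was 4.14 in the lower series of OHCs and -1.58 in the higher, which rests on 2 basal cells. In IHCs it was 0.98 in the higher and 6.80 in the lower series, with 8 of 19 basal and 9 of 34 apical cells at 5 CPM.

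Bak1 had 6.87 CPM in basal OHCs (5.77 to 8.12) and no read in 21 apical OHCs, where 3 counts would give 0.0298 CPM. Its fitted ratio of 2.98 depends on the added 1 CPM and is no bound. Reads were found in 5 of 8 basal OHCs and 9 of 23 middle OHCs. In IHCs it had 5.42 CPM at the base and 1.45 CPM at the apex, a ratio of 1.39, with 94.9% of the apical counts in 1 cell. The IHC ratio was 2.67 over cells of the higher series and 0.04 over those of the lower. Without the top cells it was 2.20 in OHCs and 1.82 in IHCs. Exons of Bak1 overlap Ggnbp1 on the other strand.

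Mcl1 rested on 1 cell in OHCs. It had 247 CPM at the base and 43.9 CPM at the apex, a ratio of 2.47, but the top basal cell at 795 CPM held 90.9% of the counts and without the top cells the ratio was -0.06. In IHCs it had 123 CPM at the base and 38.9 CPM at the apex, a ratio of 1.64 that was 1.91 without the top cells, 1.28 among higher-series cells and 5.08 among lower-series cells. At least 5 CPM of Mcl1 was found in 12 of 19 basal and 14 of 34 apical IHCs, and their cell medians were 22.9 and 0.635 CPM.

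Bcl2l1 was lower at the base in both types. It had 74.9 CPM in basal OHCs (71.2 to 78.8) and 381 CPM in apical OHCs (377 to 384), and 99.5 CPM in basal IHCs (97.8 to 101.2) and 566 CPM in apical IHCs (562 to 569). The ratios were -2.33 in OHCs and -2.50 in IHCs, and -2.20 and -2.85 without the top cells. The cell medians were 0.338 and 0.539 CPM in basal and apical OHCs, and 1.77 and 123 CPM in basal and apical IHCs. At least 5 CPM was found in 2 of 8 basal and 6 of 21 apical OHCs, and in 9 of 19 basal and 20 of 34 apical IHCs. Within OHCs the higher series gave -0.18 and the lower -4.24.

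Casp2 and Apaf1, which act in caspase activation, were lower at the base as well. Casp2, a caspase activated by DNA damage, had no read in 8 basal OHCs and 0.0835 CPM in basal IHCs, against 5.89 CPM in apical OHCs and 19.2 CPM in apical IHCs. A count of 3 would give 0.149 CPM in basal OHCs, and the apical OHC level had 91.2% of its counts in 1 cell. Without the top cells its ratios were -0.65 in OHCs and -3.21 in IHCs. Apaf1 had 0.398 CPM at the base and 20.4 CPM at the apex in OHCs, and 0.0987 and 3.14 CPM in the same order in IHCs. A single cell held 96.0% of the apical OHC and 83.0% of the apical IHC counts, and without the top cells the ratios of Apaf1 were -0.53 and -0.55.

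**Figure D4:**
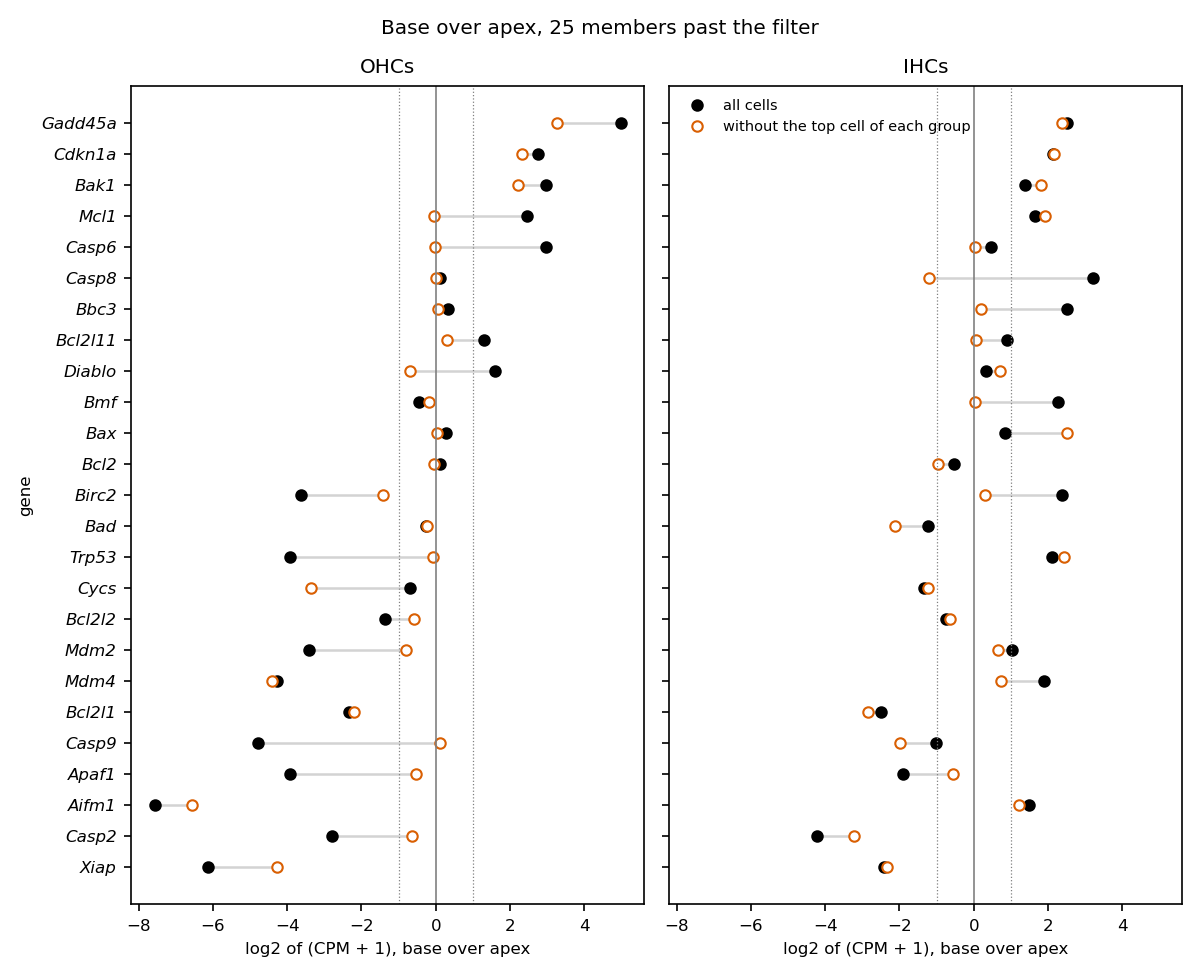
Log2 ratio of base over apex for the 25 members past 5 CPM, in OHCs at left and IHCs at right; black points use all cells, open orange points leave out the top cell of each group, and dotted lines mark 2-fold. Gadd45a, Cdkn1a and Bak1 stay above 2-fold in both panels without the top cells, and Mcl1 in OHCs is at 2.47 with all cells and at -0.06 without them.

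In the pooled levels 5 members were 2-fold lower at the base in OHCs and 2-fold higher in IHCs, as were 10.8% of all genes, and 0 members went the other way past 2-fold, as 4.09% of all genes did. Trp53 had a base over apex ratio of -3.93 in OHCs and 2.11 in IHCs, Birc2 of -3.64 and 2.39, Mdm2 of -3.41 and 1.02, Mdm4 of -4.27 and 1.88, and Aifm1 of -7.56 and 1.49. Without the top cells the ratio of Trp53 was -0.07 in OHCs and 2.44 in IHCs, that of Birc2 -1.42 and 0.32, and that of Aifm1 -6.57 and 1.21. For Birc2 in OHCs 1 apical cell, from a library with 12.9% mitochondrial counts, held 98.4% of the apical counts, and without the mitochondria-rich libraries the ratio was 2.05. In the lower series the ratio of Mdm4 was 1.81 in OHCs and -2.80 in IHCs, and that of Mdm2 was -0.20 and -2.72. Aifm1, the apoptosis-inducing factor that also serves the respiratory chain, had 0.0996 CPM in basal OHCs and 207 CPM in apical OHCs, with at least 5 CPM in 0 of 8 and 7 of 21 cells. A count of 0 in 8 cells allows a share of up to 36.9% by the exact binomial interval. In IHCs Aifm1 had 49.4 CPM at the base and 16.9 CPM at the apex, with 5 of 19 and 8 of 34 cells at 5 CPM, and the ratio was 1.95 in the higher and -1.55 in the lower series.

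Xiap was lower at the base in OHCs, at 0.299 against 89.6 CPM at the apex, a ratio of -6.12 that was -4.27 without the top cells. In IHCs its ratio was -2.42, with 0.62 in the higher and -9.02 in the lower series. Further members that met the rule in IHCs were Bbc3 as higher (2.52, and 0.20 without the top cells) and Casp9 (-1.03) and Cycs (-1.34) as lower. In the lower series their IHC ratios were 0.16 for Bbc3, -0.11 for Casp9 and -0.22 for Cycs. Apical and basal IHCs of that series had 0.176 and 0.0885 CPM of Casp9, and 0.427 and 0.221 CPM of Cycs. In OHCs Bcl2l11 (1.31, and 0.29 without the top cells) and Diablo (1.60, and -0.68 without the top cells) met the rule as higher. Diablo, which frees caspases from inhibitors, had 96.3% of its basal OHC counts in 1 cell from a mitochondria-rich library. Past 2-fold but with another direction in a series were Bad, Bmf, Casp8, Mdm2, Mdm4, Xiap and Aifm1 in IHCs, and Casp6, Casp9 and Mdm4 in OHCs. Bcl2l2 in OHCs also changed sign in the mean over cells.

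Of the 25 members past the filter, Bcl2, Bcl2l1, Bcl2l2, Bcl2l11, Bbc3, Casp9, Trp53 and Cdkn1a had their highest pooled level in middle IHCs. Bad and Bmf had theirs in middle OHCs. The share of all genes with their highest level in the middle turn was not computed. Against apical cells, 11 of the 25 members were 2-fold higher and 2 were lower in middle IHCs (28.7% and 23% of all genes), and 7 higher and 10 lower in middle OHCs (31.3% and 31.3%). The 7 middle OHCs of the higher series had a median of 18 members with a read and the 16 of the lower series 7. Middle IHCs had medians of 20 in 13 cells and 6 in 21 cells in the same order. Depth moved with the series, and after thinning the medians were 15 and 4 in OHCs and 17 and 4 in IHCs.

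A wider list of 130 apoptosis and p53 genes outside the 32 was taken for comparison, of which 99 reached 5 CPM in a group. Of these, 14 were 2-fold higher and 37 were 2-fold lower in OHCs than in IHCs, where 17.3% and 39.3% of all genes were, and 2 and 2 met the rule, as 1.25% and 6.9% of all genes did. The median ratio of the 99 was -0.41, with -0.59 over all genes. Plk2, a p53-induced kinase, was higher in OHCs at 31.5, 30.5 and 3.74 CPM, compared with IHC levels of 5.05, 3.54 and 0.471 CPM over the same regions. Vdac1, the main channel of the outer mitochondrial membrane, was higher with a mean ratio of 1.39. It had 53.1859, 85.349 and 526.923 CPM in OHCs (apex to base) and 34.2255, 62.1673 and 60.9945 CPM in the matching IHCs. The Vdac1 difference was below 2-fold at the apex and in the middle turn, and past it only at the base. Btg2, an antiproliferative p53 target, was lower at 1.80, 9.99 and 0 CPM in OHCs from apex to base (IHC levels 472, 365 and 214 CPM), and Jun, a stress-induced transcription factor, was lower with a mean ratio of -4.56.

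At the base the wider list had 24 genes 2-fold higher and 36 lower in IHCs, with 15 and 22 meeting the rule (26.5%, 31.5%, 14.8% and 19.3% of all genes). In OHCs it had 25 higher and 52 lower, with 21 and 37 meeting it (17.4%, 47.6%, 14.3% and 28.8% of all genes). Their median ratios were -0.29 in IHCs and -1.30 in OHCs, where all genes had -0.02 and -0.72. In IHCs the largest of those meeting it were Gadd45gip1 (5.80), Tradd (4.93) and Chek1 (4.002) as higher and Fadd (-4.20), Bcl2l13 (-3.31) and Cflar (-2.36) as lower. In OHCs they were Bnip3, Ccnd1 (4.29) and Trp53bp2 (4.14) as higher and Bnip3l (-8.28), Zmat3 (-7.38) and Rchy1 (-5.94) as lower. Bnip3, a mitochondrial protein of the BH3-only type, had 64.7 CPM in basal OHCs and no read in apical OHCs. Fadd and Tradd, both adaptors of death receptors, stood on opposite sides in IHCs. Cell shares and ratios without the top cells are not given for these genes of the wider list. How far single cells carry their ratios was not tested.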

How the data were processed

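RNA of 139 single mouse cochlear hair cells was read on a HiSeq 2500 (per the labels' protocols), and the authors deposited 1 table of raw counts for 55335 genes. Trimmomatic, HISAT2, featureCounts of Subread 1.4.6 and build GRCm38 are named in the submitters' processing notes; the sources used here state neither strandedness, nor read filters, nor the annotation version. The deposited counts were summed over the cells of each group and scaled with TMM factors (edgeR 4.0.16); DESeq2 1.42.0 size factors were an alternative. Cells of 1 group are not replicates, and the labels name no animals, so no p-value was computed. The ratio code was tested on simulated data without added dropout or series differences. That test does not cover genes whose counts in a group come mostly from 1 cell. Log2 ratios used 1 CPM as pseudocount, and genes under 5 CPM in all groups were left out of the counts of 2-fold genes. Poisson and exact binomial (Clopper-Pearson) intervals are at 95%. The Poisson intervals cover counting error only. The binomial intervals treat the cells as independent draws and leave out differences between animals. For equal depth, cells were thinned to 582635 counts, the lowest-depth 10% of cells being left out, so that 125 remained.

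Any of the 32 members could be named. One was described in full in a comparison where it was 2-fold or more different, with the same direction in the mean over cells, in each series with at least 5 cells in both groups and, for OHCs over IHCs, in each of the 3 regions. Genes of the wider list were named by the same rule, at most 3 a direction. The members, the wider list and the marker lists were chosen with earlier results of these data known. Gene positions and exon lengths came from GENCODE for GRCm38, and promoters from RefSeq (GRCm38.p6). Beside the exon overlaps given above, Bad (Gpr137), Bid (Bcl2l13), Casp9 (Cela2a, Ctrc), Diablo (AC157931.1, B3gnt4) and Htra2 (Aup1, Loxl3) have overlaps on the other strand. Bcl2l2 (Gm20521) and Diablo (Gm49027) have overlaps on the same strand. A cell whose title repeats number 17 had a Pearson correlation of log counts of 0.233 with its namesake and was kept as a separate cell.

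Leaving out the 17 mitochondria-rich libraries, the 9 libraries with marker order against the label, and the top cell of each group were alternatives chosen after seeing the data.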

Additional observations from a re-analysis of the deposited data

Results flagged for a closer look

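In basal OHCs, 10 members were examined for a cell far from the other 7, and 9 had one whose gap to the next cell took more than the critical share of the group's range. Chance gives such a cell in about 1 of 20 groups of normally distributed values, which sparse counts of single cells are not. Of all 4279 genes with a pooled level of at least 5 CPM in basal OHCs, 81% had such a cell, so the members' count is near that background. The cell levels were 795 CPM for Mcl1 (next highest 127), 605 CPM for Diablo (22.2), 540 CPM for Gadd45a (153), 240 CPM for Bcl2l1 (102.2), 185 CPM for Birc2 (0.506), 180 CPM for Cdkn1a (43.0), 60.0 CPM for Casp6 (0), 23.8 CPM for Cycs (0) and 22.7 CPM for Mdm4 (7.70). Cell 8 of the group was the high one for Mcl1, Gadd45a and Mdm4, and cell 2, with 14.8% mitochondrial counts, for Bcl2l1, Diablo and Casp6.

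Base over apex went opposite ways in OHCs and IHCs, past 2-fold in both, for 5 members, lower in OHCs and higher in IHCs, as for 10.8% of all genes. The log2 ratio of OHCs minus that of IHCs was -6.04 for Trp53, -4.43 for Mdm2, -6.16 for Mdm4, -6.02 for Birc2 and -9.06 for Aifm1. These differences were not tested. In the lower series Mdm4 had ratios of 1.81 in OHCs and -2.80 in IHCs, and Mdm2 had -2.72 in IHCs. In OHCs the ratio was -0.07 for Trp53 without the top cells and 2.05 for Birc2 without the mitochondria-rich libraries. Aifm1 in IHCs was -1.55 in the lower series.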

How the results depend on the processing

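No paired analysis was possible because the labels tie no cell of one group to a cell of another and each group counts as 1 sample. Of the members 2-fold different, 13 of 14 in OHCs over IHCs, 12 of 19 in IHC base over apex and 9 of 18 in OHC base over apex had the same sign under every alternative tried, among them Bcl2 and Cdkn1a (OHCs over IHCs) and Gadd45a, Bak1 and Bcl2l1 (base over apex in both types). The cause of the changes below was not tested.

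Signs changed in OHCs over IHCs for Bcl2l11 (0.0477, lower series). In IHC base over apex they changed for Mdm2 (-0.28) and Mdm4 (-0.0747) without the deepest cells, for Casp8 (-2.93) and Xiap (0.62) in the higher series, and for Bad (0.0091), Bmf (-0.092), Mdm2 (-2.72), Mdm4 (-2.80) and Aifm1 (-1.55) in the lower series. Casp8 was -1.21 without the top cells. In OHC base over apex they changed for Bcl2l2 (0.36) with equal weight per cell, Bcl2l11 (-0.35) at equal depth and Cdkn1a (-1.58) in the higher series. In the lower series they changed for Bcl2l2 (1.39), Casp6 (-0.31), Casp9 (0.0060) and Mdm4 (1.81). Without mitochondria-rich libraries they changed for Casp6 (-0.10), Diablo (-2.56) and Birc2 (2.05), and without the top cells for Mcl1 (-0.0563), Casp6 (-0.0293), Casp9 (0.12) and Diablo (-0.68).

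Counts of 2-fold members in OHCs over IHCs became 3 higher with DESeq2 size factors and 1 higher in the higher and 1 in the lower series, and 8 lower with a pseudocount of 5 CPM and 9 lower with a filter of 20 CPM, against 0 and 14. In IHC base over apex they became 6 higher in the lower series and 6 without the top cells, and 3 lower with a pseudocount of 5 CPM and 4 with a filter of 20 CPM, against 12 and 7. In OHC base over apex they became 2 higher and 6 lower without the top cells and 3 lower in the lower series, against 7 and 11.

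Median ratios of the members are given in the order OHCs over IHCs, IHC base over apex and OHC base over apex. They were -1.37, 0.87 and -0.39 with total counts, and -0.76, 0.99 and -0.24 with DESeq2 size factors. Totals without mitochondrial genes and CT010467.1 gave -1.25, 0.97 and -0.38, equal weight per cell -0.87, 1.29 and -0.15, and equal depth -0.86, 1.13 and -0.35. Without the deepest cells they were -1.18, 0.48 and -0.39, in the higher series -0.84, 0.63 and -0.29, and in the lower series -1.72, -0.11 and 0.0045. Without the cell of repeated title number they were -1.30, 0.87 and -0.45. A pseudocount of 0.1 CPM gave -1.40, 1.07 and -1.30, and 5 CPM gave -0.65, 0.59 and -0.11. No filter gave -0.60, 0.67 and -0.0563, and a filter of 20 CPM gave -1.34, 1.02 and -2.33. Without mitochondria-rich libraries they were -1.31, 1.04 and -0.42, without libraries of contrary marker order -1.25, 0.83 and -0.35, and without the top cells -1.23, 0.19 and -0.41.

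Single-cell dropout, the 8 basal OHCs and the title-number series limit these values. With 1 sample a group, differences between animals, preparation days and regions cannot be told apart.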
